A study of Mus musculus with 4 samples.

Results

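Matrix proteases, their inhibitors and the plasminogen activation genes were followed in MyD88-deficient mouse macrophages grown from bone marrow. The set held 9 genes: the matrix metalloproteinases Mmp9, Mmp12, Mmp13, Mmp14 and Mmp19, the inhibitors Timp1 and Timp2, and the urokinase gene Plau with its receptor gene Plaur. Every probe set whose only gene symbol in the platform annotation was one of these was taken, which gave 19 probe sets for 9 genes, of 34945 probe sets for 18193 genes with a single symbol. Measured were 2 arrays of MyD88 -/- macrophages given zymosan at 100 ug/ml for 120 min, and 2 arrays of unstimulated MyD88 -/- macrophages (0 min). Zymosan is a yeast cell wall particle rich in beta-glucan. All cells had been grown from marrow for 6 days in recombinant human M-CSF, and both groups carry the same MyD88 deficiency (MyD88 is the adaptor of most Toll-like receptors), so what follows says nothing on which differences need MyD88. Whether replicate arrays stem from different mice or separate cultures is not in the labels. Titles of the unstimulated arrays hold the letters LPS and PIC, respectively, and those of both zymosan arrays hold ZYM. A p-value here covers array-to-array spread alone, some of which may be technical.

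Matrix metalloproteinases are zinc proteases, made as inactive proenzymes, that cut collagen, elastin and other matrix proteins, and they are held in check by the tissue inhibitors of metalloproteinases, or TIMPs. Urokinase, bound to its receptor on the cell surface, turns plasminogen into plasmin, which dissolves fibrin and can activate metalloproteinase proenzymes. Macrophages use these proteases to move through tissue and to clear matrix, and mouse macrophages are best known for the elastase encoded by Mmp12. Many metalloproteinase promoters carry a binding site for AP-1, the dimer of Fos and Jun proteins, close to a TATA box.

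The promoter windows of Mmp13, Mmp12, Mmp10 and Mmp8 are shown because Mmp13 was the member that rose. It lies in a row of metalloproteinase genes, some of which rose as well. The Plaur window is shown because, of the 6 members with a window, Plaur is the remaining one with an AP-1 match. Each window runs from 250 bases before to 50 bases after a gene start in RefSeq's GRCm38.p6 annotation, 5′ to 3′ on the strand of the gene. Capitals mark matches found on either strand. The letters searched were TGANTCA for AP-1 and TATAAA for the TATA box. For the ETS family of factors the search used AGGAAG, and for the EGR family it used GCGNGGGCG. The core searched as NF-kB-like was GGGNNTTNC. The windows are chr9:7272264-7272563 for Mmp13, chr9:7347124-7347423 for the downstream start of Mmp12, chr9:7502092-7502391 for Mmp10, chr9:7558179-7558478 for Mmp8 and chr7:24462233-24462532 for Plaur, all on the plus strand.
Mmp13: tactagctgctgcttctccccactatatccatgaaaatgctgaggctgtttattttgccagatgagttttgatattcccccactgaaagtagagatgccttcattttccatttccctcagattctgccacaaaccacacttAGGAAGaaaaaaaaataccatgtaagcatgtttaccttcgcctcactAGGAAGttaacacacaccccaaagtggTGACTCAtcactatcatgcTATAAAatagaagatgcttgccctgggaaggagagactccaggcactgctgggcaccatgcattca
Mmp12: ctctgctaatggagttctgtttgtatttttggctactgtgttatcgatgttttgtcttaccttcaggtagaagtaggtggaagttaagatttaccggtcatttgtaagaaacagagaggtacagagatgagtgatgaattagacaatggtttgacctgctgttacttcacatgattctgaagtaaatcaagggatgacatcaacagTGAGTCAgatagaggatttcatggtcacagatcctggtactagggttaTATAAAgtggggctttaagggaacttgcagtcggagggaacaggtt
Mmp10: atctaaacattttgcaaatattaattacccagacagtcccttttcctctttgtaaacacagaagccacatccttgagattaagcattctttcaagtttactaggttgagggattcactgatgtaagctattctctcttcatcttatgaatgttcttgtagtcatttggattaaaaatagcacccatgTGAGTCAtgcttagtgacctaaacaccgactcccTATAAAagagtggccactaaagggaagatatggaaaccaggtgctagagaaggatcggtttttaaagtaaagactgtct
Mmp8: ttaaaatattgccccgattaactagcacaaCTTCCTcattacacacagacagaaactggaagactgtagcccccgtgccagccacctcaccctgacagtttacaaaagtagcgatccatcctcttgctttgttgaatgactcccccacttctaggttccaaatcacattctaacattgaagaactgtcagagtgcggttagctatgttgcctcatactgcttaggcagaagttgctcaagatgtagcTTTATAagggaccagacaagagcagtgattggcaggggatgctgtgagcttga
Plaur: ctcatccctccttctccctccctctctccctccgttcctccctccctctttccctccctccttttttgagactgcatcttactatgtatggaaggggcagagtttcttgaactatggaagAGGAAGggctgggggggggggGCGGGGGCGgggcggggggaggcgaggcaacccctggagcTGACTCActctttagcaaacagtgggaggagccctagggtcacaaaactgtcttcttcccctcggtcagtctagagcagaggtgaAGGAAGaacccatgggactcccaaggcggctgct

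In the Mmp13 window an AP-1 match lay at bases 216 to 222 of the 300 and a TATA box at bases 235 to 240, with 12 bases between them. The printed Mmp12 window had the same order with 41 bases between (the upstream Mmp12 window in the table had neither match), and the Mmp10 window had it with 27. In the printed Mmp12 window the TATA box letters, at bases 255 to 260, lay after the annotated start. The Mmp8 window held no AP-1 match, and its TATA box letters lay on the opposite strand. Plaur had an AP-1 match and an EGR match but no TATA box. Of the 32851 windows in the table, 7.81% held an AP-1 match, 13.6% a TATA box, 35.4% an ETS match, 5.55% an EGR match and 15.2% the NF-kB-like core, and 0.581% had an AP-1 match followed by a forward TATA box. RefSeq's table held windows for 6 of the 9 members, and none of their 7 windows had the NF-kB-like core. Mmp9, Mmp19 and Plau had no window there and could not be searched. None of the matches in the printed windows overlapped another. A match is a description of letters and not a site shown to be used.

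Values are log2 expression values made by the authors with RMA, and each difference is zymosan minus unstimulated on that scale. A probe set was tested when at least 2 arrays reached the 40th percentile of the array (log2 values of 4.36 to 4.39, called the detection level here), and it was called when limma's adjusted p was under 0.05. The arrays' scan dates, called processing days here, differed by 16 days within the unstimulated pair. The zymosan pair shared 1 later day, 153 days after the first, with another operator and project. Processing day and zymosan therefore cannot be told apart. Over the 27571 kept probe sets the zymosan arrays correlated across probe sets at r = 0.995 and the unstimulated arrays at r = 0.989, against 0.964 to 0.969 between groups. All 8 macrophage markers stood above the detection level on all 4 arrays, with a mean log2 level of 11.16 and 11.15 on the zymosan arrays and 11.61 and 11.80 on the unstimulated arrays, and 4 of them (Adgre1, Itgam, Fcgr1 and Cd14) were called lower with zymosan. Of 11 tested granulocyte markers, 10 were higher with zymosan. Over the 12 with a probe set the mean level was 7.65 and 7.74 on the zymosan arrays against 5.99 and 5.88 on the unstimulated arrays, while Cxcr2, the neutrophil chemokine receptor, was below the detection level on every array.

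Of the 18 member probe sets tested, 1 rose and 2 fell with zymosan. Mmp13 rose, and 1 probe set each of Plau and Timp2 fell, while the other 6 genes had no probe set past the threshold. Over all kept probe sets 8.48% were called higher and 7.45% lower, so the 1 and 2 calls among 18 lay near what the array as a whole gave. The median difference of the tested members was -0.03, against -0.01 over all kept probe sets, and 9 fitted differences were above 0 and 9 below. The remaining probe set, 1437081_at of Timp2, lay below the detection level on all arrays.

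**Figure D1:**
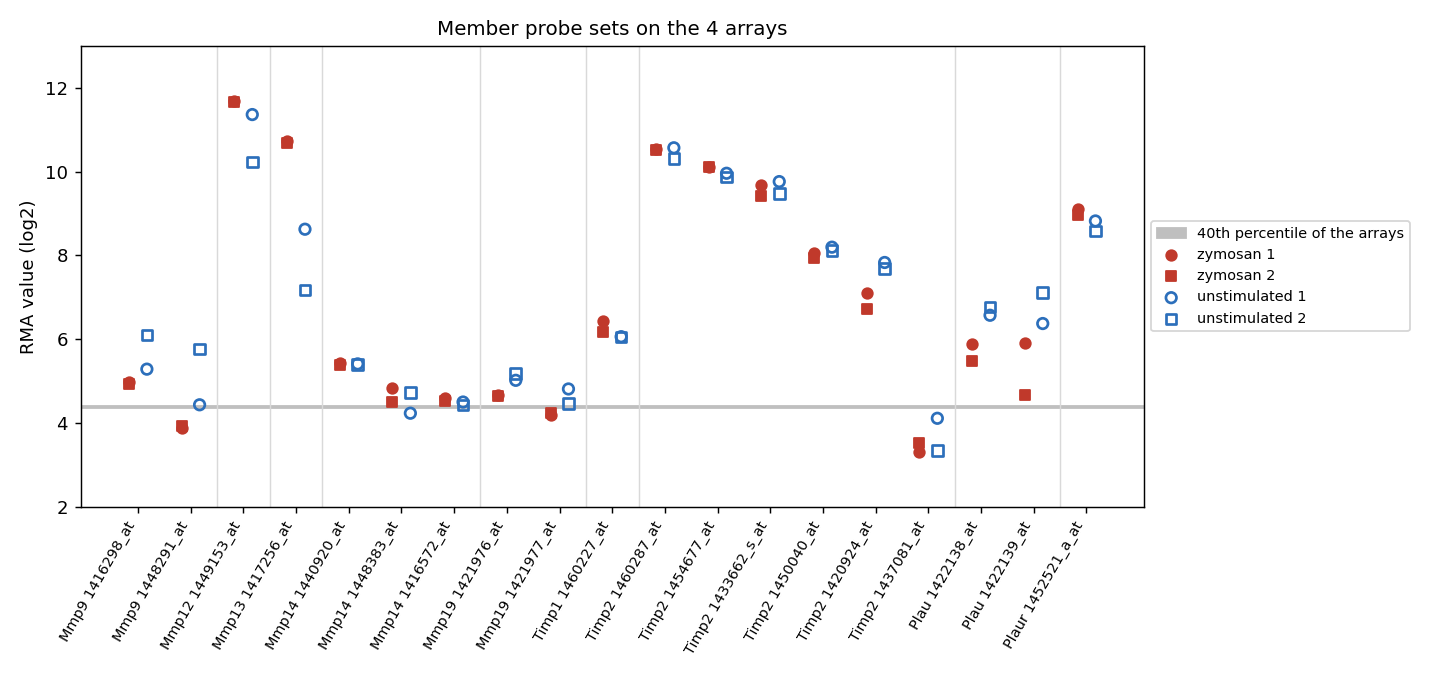
RMA values (log2) of the 19 member probe sets on each array, zymosan as filled red points and unstimulated as open blue points, with the detection level of 4.36 to 4.39 as a grey band. Mmp13 shows the widest gap between groups, and Mmp9, Mmp12 and Mmp13 show unstimulated arrays that lie well apart.

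Mmp13 encodes collagenase-3, which cuts fibrillar collagen. Its probe set, 1417256_at, read 10.73 and 10.69 on the zymosan arrays, against 8.62 and 7.17 on the unstimulated arrays. The groups did not overlap, the zymosan arrays lay close together, and the unstimulated arrays lay 1.45 apart. The mean was 10.71 ± 0.03 in zymosan-treated and 7.90 ± 1.03 in unstimulated macrophages (SD, n = 2 each), a 7.03-fold rise (log2 difference 2.81, SE 0.44, adjusted p = 0.0149, limma). Between single arrays the difference ran from 2.07 to 3.56. The call was lost when zymosan 1 (adjusted p = 0.092) or zymosan 2 (adjusted p = 0.105) was left out, and under limma's treat with a minimum fold of 1.5 (adjusted p = 0.0746), with the direction kept. Without unstimulated 1 the difference was 3.54, and without unstimulated 2 it was 2.09, both called (SE 0.12 each). In such fits the lone array of a group is assumed to vary like the pair left in the other group. For fits without an unstimulated array the spread thus came from the zymosan pair, 0.04 apart for Mmp13. The limma fit drew it toward the spread of all kept probe sets. The gap of 1.45 was not counted, so these calls do not show that the result is stable.

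Mmp12, the macrophage elastase gene, lies next to Mmp13. It read 11.68 and 11.65 on the zymosan arrays, against 11.36 and 10.23 on the unstimulated arrays. Both zymosan arrays lay above both unstimulated arrays, but the unstimulated arrays differed from each other by more than the groups did (1.14 against 0.88). The difference, 0.88 with an SE of 0.35, missed the threshold (adjusted p = 0.156, limma), and its 95% interval ran from just under 0 to 1.75. Without unstimulated 1, the array where Mmp12 and Mmp13 were higher of the unstimulated pair, the Mmp12 difference was 1.44. Its spread came from the zymosan pair (0.03 apart), drawn toward that of all kept probe sets. The SE was reduced to 0.12 because the gap of 1.14 was left out. Without unstimulated 2 the difference was 0.31.

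Mmp9 encodes gelatinase B, which is also stored in neutrophil granules. Probe set 1416298_at read 4.98 and 4.93 on the zymosan arrays, against 5.28 and 6.09 on the unstimulated arrays. At the other probe set, 1448291_at, both zymosan arrays were below the detection level (3.89 and 3.92), and the unstimulated arrays read 4.43 and 5.76. Zymosan arrays were thus the lower at both probe sets, close to each other, whereas unstimulated 2 stood above unstimulated 1 by 0.81 and 1.33. Neither difference passed the test (-0.73 with adjusted p = 0.121, and -1.19 with adjusted p = 0.109, limma). With its zymosan arrays set to the detection level, 1448291_at was 1.67-fold lower between group means. Without unstimulated 1 the difference at 1416298_at was -1.14, and without unstimulated 2 it was -0.33. The SE there was 0.12 in place of 0.26. It again came from the zymosan pair (0.05 apart), drawn toward the spread of all kept probe sets.

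The unstimulated pair differed more than the zymosan pair in these 3 proteases. Of the 18 tested member probe sets, 3 lay at least 2-fold apart between unstimulated 1 and unstimulated 2, those of Mmp13 and Mmp12 and 1448291_at of Mmp9, against 0.776% of all kept probe sets. Mmp13 and Mmp12 were higher on unstimulated 1 and Mmp9 was higher on unstimulated 2. In the zymosan pair, 1 member probe set lay 2-fold apart, a probe set of Plau, against 0.0326% of all kept probe sets.

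**Figure D2:**
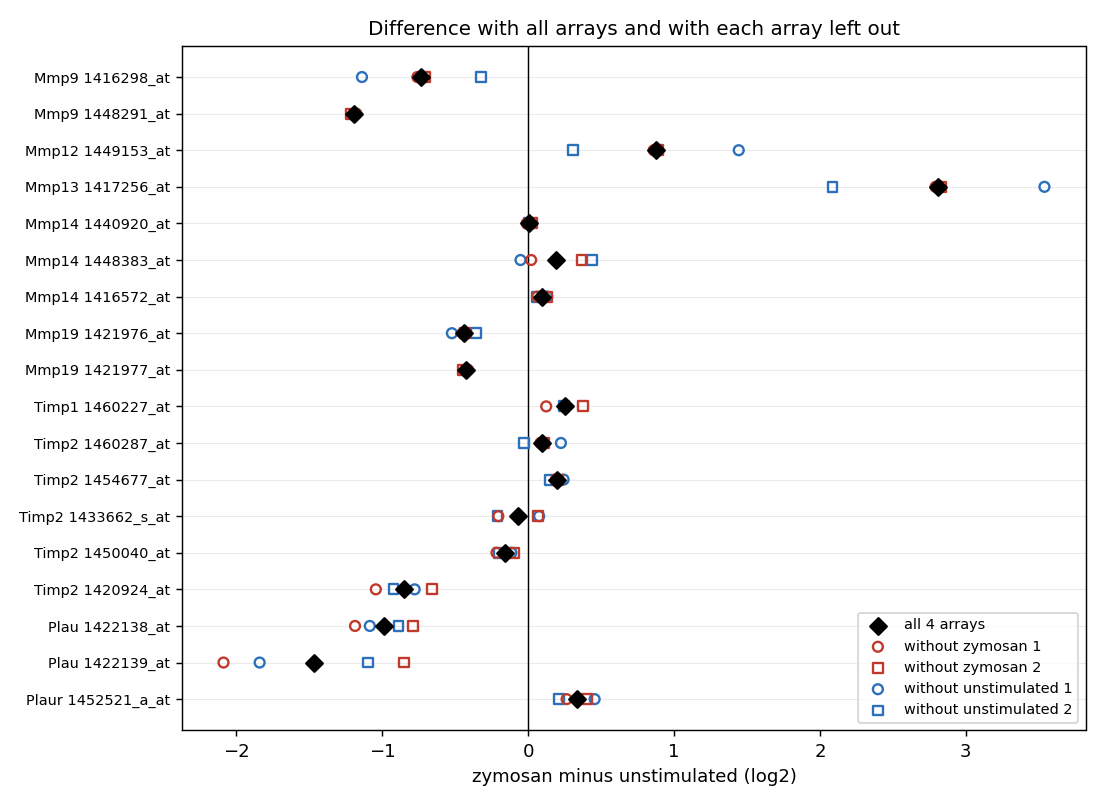
Difference, zymosan minus unstimulated (log2), at the 18 tested member probe sets with all 4 arrays (black diamonds) and with each array left out (open points). Leaving out an unstimulated array moves Mmp13 between 2.09 and 3.54 and Mmp12 between 0.31 and 1.44, while Plau moves with the zymosan arrays. Mmp9 1448291_at and Mmp19 1421977_at have no value without an unstimulated array, because they then no longer passed the filter.

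Mmp14 encodes a membrane-anchored metalloproteinase that activates the proenzyme of Mmp2 together with Timp2. Its probe set of highest mean, 1440920_at, read 5.43 and 5.39 on the zymosan arrays, against 5.41 and 5.40 on the unstimulated arrays. The groups overlapped, and the difference was 0.01 with a 95% interval of -0.24 to 0.26 (adjusted p = 0.971, limma). The other Mmp14 probe sets lay near the detection level and differed by 0.19 and 0.10, neither past the test (adjusted p = 0.578 and 0.591). Mmp19 encodes another metalloproteinase. It read 4.67 and 4.65 on the zymosan arrays and 5.02 and 5.18 on the unstimulated arrays at 1421976_at, just above the detection level and without overlap. The difference of -0.44 (SE 0.11) narrowly missed the threshold (adjusted p = 0.0534), and was under it when each gene had 1 probe set (adjusted p = 0.0408). Without unstimulated 1 the difference was -0.52, with the spread of the zymosan pair, 0.02 apart, drawn toward that of all kept probe sets. At 1421977_at both zymosan arrays were below the detection level, at 4.19 and 4.22 against 4.81 and 4.46 on the unstimulated arrays. The difference of -0.43 did not pass the test (adjusted p = 0.106, limma). With the zymosan arrays set to the detection level, the means were 1.21-fold apart.

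Of the inhibitors' 6 tested probe sets, 1 was called, lower with zymosan, beside 7.45% of all kept probe sets called lower. Timp1, a secreted inhibitor that cytokines induce in many cells, read 6.43 and 6.18 on the zymosan arrays, against 6.06 and 6.05 on the unstimulated arrays. The difference of 0.25 (95% interval -0.06 to 0.56) did not pass the test (adjusted p = 0.239, limma). Timp2, the inhibitor that also takes part in activating the Mmp2 proenzyme, was read by 6 probe sets, of which 5 were tested. At 1460287_at, of highest mean, it read 10.55 and 10.53 on the zymosan arrays, against 10.57 and 10.31 on the unstimulated arrays, with overlap (difference 0.10, 95% interval -0.22 to 0.41). The probe sets 1454677_at, 1433662_s_at and 1450040_at differed by 0.20, -0.07 and -0.16, none of them past the test. Probe set 1420924_at stood apart from these. It read 7.10 and 6.71 on the zymosan arrays, against 7.83 and 7.68 on the unstimulated arrays, and was called lower (difference -0.85, SE 0.16, adjusted p = 0.0232). The call was lost without zymosan 1 (adjusted p = 0.0578), without zymosan 2 (adjusted p = 0.144), under treat (adjusted p = 1) and with a random block for processing day (adjusted p = 0.0775), the direction being kept. That probe set and the uncalled readings at 1460287_at and 1450040_at were designed against the same database sequence. In a contrast chosen after these values were seen, the value of 1420924_at minus that of 1460287_at on each array was -3.45 and -3.81 on the zymosan arrays, against -2.74 and -2.63 on the unstimulated arrays (2-sided exact permutation p = 0.333, the smallest that 2 arrays against 2 allow). That test cannot pass the threshold in this design. The 5 tested probe sets gave differences of both signs, and no direction is given for the gene.

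Plau encodes urokinase, the protease that makes plasmin. At 1422138_at it read 5.88 and 5.48 on the zymosan arrays, against 6.57 and 6.77 on the unstimulated arrays. The groups did not overlap, and the mean fell to 5.68 ± 0.28 in zymosan-treated macrophages, against 6.67 ± 0.14 in unstimulated macrophages (SD, n = 2 each), or 1.98-fold lower (difference -0.99, SE 0.17, adjusted p = 0.0177, limma). The other probe set, 1422139_at, designed against the same sequence, read 5.89 and 4.66 on the zymosan arrays, against 6.37 and 7.12 on the unstimulated arrays. It was lower by a larger but less even amount (-1.47, SE 0.44), which did not pass the test (adjusted p = 0.0797), with zymosan 2 standing 1.24 below zymosan 1. The call at 1422138_at was lost without zymosan 1 (adjusted p = 0.0516), without zymosan 2 (adjusted p = 0.115), under treat (adjusted p = 0.51) and when processing day entered as a random block (adjusted p = 0.0592), with the direction kept each time. Plaur, the receptor that holds urokinase at the cell surface, read 9.10 and 8.96 on the zymosan arrays, against 8.82 and 8.58 on the unstimulated arrays. Its arrays did not overlap either, but the difference of 0.33 (95% interval 0.01 to 0.66) did not pass the test once adjusted (adjusted p = 0.149).

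**Figure D3:**
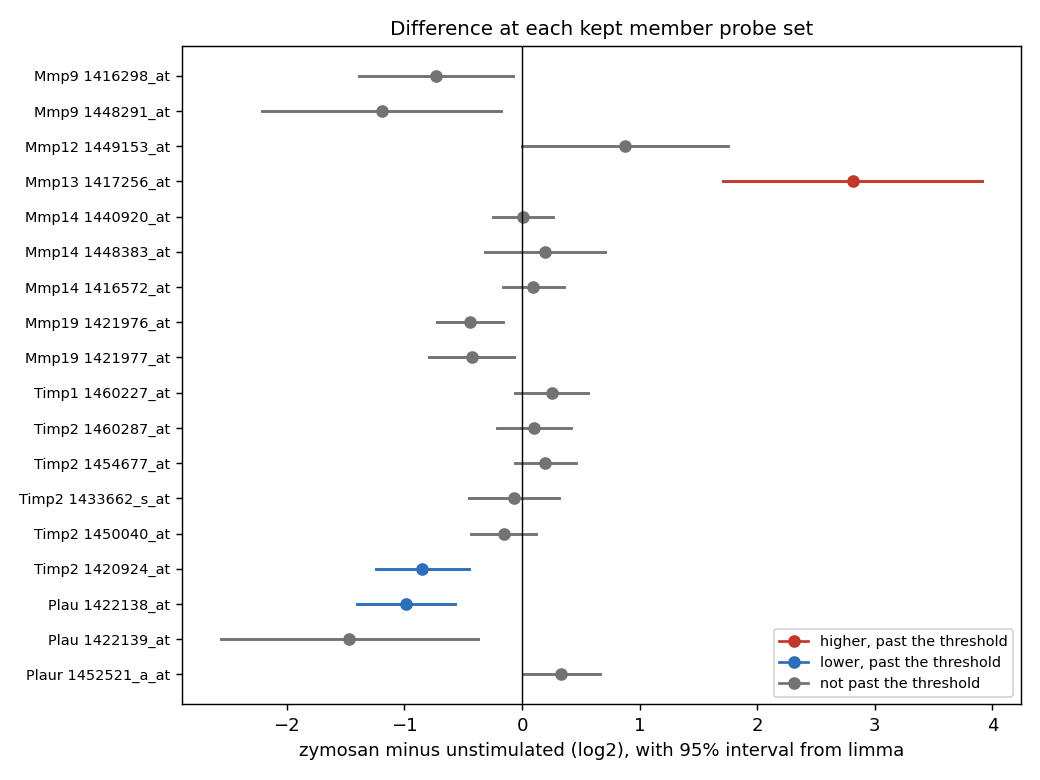
Difference, zymosan minus unstimulated (log2), with limma's 95% interval at the 18 tested member probe sets. Mmp13 is the member past the threshold above 0, and Plau 1422138_at and Timp2 1420924_at are those below 0, while intervals of several uncalled probe sets leave out 0 because the call was adjusted over all kept probe sets.

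Mmp13 and Mmp12 stand first in a row of 10 metalloproteinase genes on chromosome 9, which RefSeq's table orders as Mmp13, Mmp12, Mmp1b, Mmp3, Mmp1a, Mmp10, Mmp8, Mmp27, Mmp20 and Mmp7. Of these, 9 had a probe set here. Besides Mmp13, Mmp8 and Mmp10 rose. Mmp8, the neutrophil collagenase gene, read 9.04 and 9.15 on the zymosan arrays, against 6.18 and 5.05 on the unstimulated arrays, an 11.2-fold rise (log2 difference 3.48, SE 0.35, adjusted p = 0.00528), a call lost without zymosan 2 (adjusted p = 0.0571). Mmp10, or stromelysin-2, read 5.89 and 5.48 on the zymosan arrays, against 5.04 and 4.99 on the unstimulated arrays (difference 0.67, SE 0.16, adjusted p = 0.0448). Mmp10's call was lost whichever array was left out (adjusted p from 0.0733 to 0.205). Like Mmp13 and Mmp12, Mmp8 was higher on unstimulated 1 than on unstimulated 2. The neighbours Mmp1b, Mmp3, Mmp1a and Mmp20 were below the detection level on all arrays, and Mmp7, the matrilysin gene, differed by -0.05 (adjusted p = 0.836). An AP-1 match followed by a TATA box stood in a window of 8 of the 10 genes, with 12 to 41 bases between, the 4 neighbours below the detection level among them, and Mmp8 and Mmp27 had none. Mmp8 is also among the 10 granulocyte markers that rose, together with Mpo (3.23), Prtn3 (2.05) and Elane (1.11). Between the unstimulated arrays Mmp8 differed by 1.12 (unstimulated 1 minus unstimulated 2). The other tested granulocyte markers differed there in both directions, from -0.33 (S100a8) to 0.32 (Lcn2), with Mpo at 4.53 on both and Elane at -0.03. In such bulk samples, more cells of a type and more RNA per cell cannot be told apart, and the part of other cells in the Mmp8 and Mmp13 readings was not tested.

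**Figure D4:**
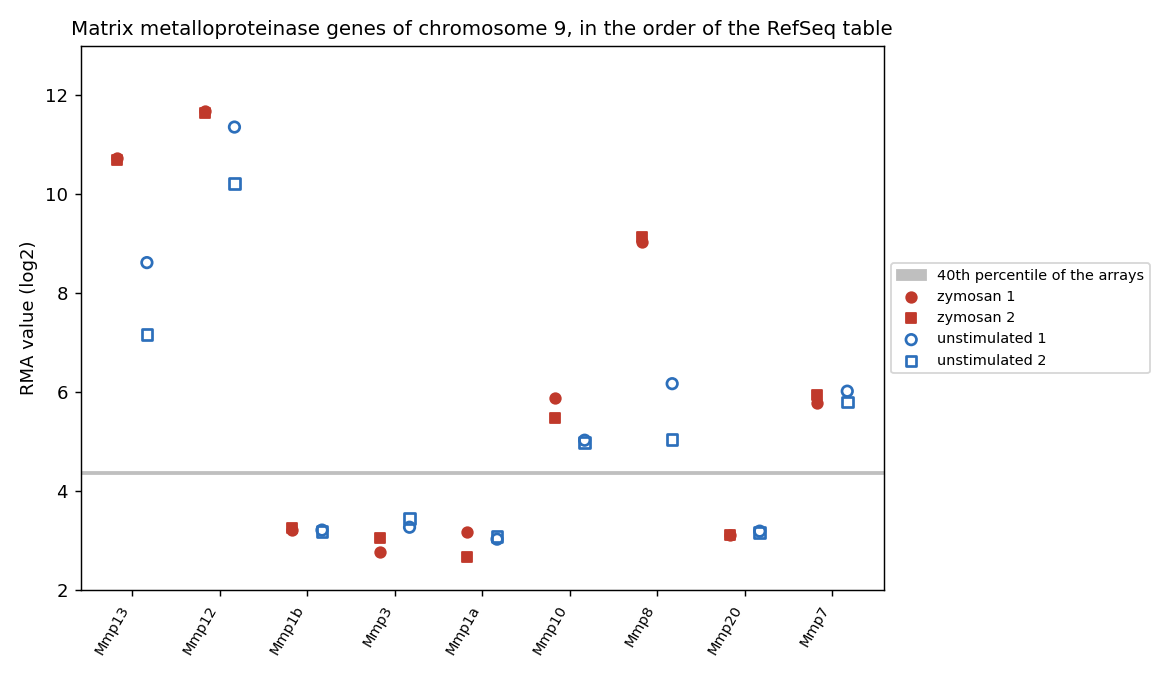
RMA values (log2) of the chromosome 9 metalloproteinase genes with a probe set, in the order of RefSeq's table (spacing not to scale), zymosan as filled red points and unstimulated as open blue points, with the detection level as a grey band. Mmp13 and Mmp8 show the wide gaps, and Mmp1b, Mmp3, Mmp1a and Mmp20 stay below the band.

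Over the other matrix metalloproteinases, 13 of 18 listed genes had a probe set and 7 were tested, of which Mmp8 and Mmp10 rose. Among all genes at their probe set of highest mean, 8.36% were called higher and 5.64% lower, with a median difference of 0.00. The list's median was -0.06. Mmp2, or gelatinase A, differed by -0.21 near the detection level (adjusted p = 0.347). Of 3 further inhibitors and regulators tested, 1 fell. Bsg, or basigin, an inducer of metalloproteinases in stromal cells, read 10.36 and 10.10 on the zymosan arrays, against 11.10 and 10.82 on the unstimulated arrays (difference -0.73, SE 0.15, adjusted p = 0.0304), and its call was lost without zymosan 1, zymosan 2 or unstimulated 1 (adjusted p = 0.0987, 0.196 and 0.0575). Timp3, the matrix-bound inhibitor, had no probe set that passed the filter.

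In the rest of the plasminogen system, 9 genes were tested and 1 rose. Plgrkt, a plasminogen receptor of the cell membrane, read 9.34 on both zymosan arrays, against 8.89 and 8.75 on the unstimulated arrays (1.43-fold higher, adjusted p = 0.0315), a call lost without zymosan 1, zymosan 2 or unstimulated 2 (adjusted p = 0.183, 0.199 and 0.0637). Anxa2, a subunit of a cell surface plasminogen receptor, differed by -0.03 (adjusted p = 0.914). Lrp1, the endocytic receptor that clears urokinase bound to inhibitor, gave unlike readings, -0.29 at its probe set of highest mean (adjusted p = 0.232) and 0.94 at another (adjusted p = 0.00663). Plat, the tissue activator, Serpinb2, an inhibitor of both activators, and Plg, plasminogen itself, did not pass the filter.

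Among 10 ADAM and ADAMTS proteases tested, 1 rose and 1 fell. Adamts1, a secreted protease that cuts the proteoglycans versican and aggrecan, read 6.78 and 6.86 on the zymosan arrays, while both unstimulated arrays (4.28 and 4.16) were below the detection level. It was at least 5.39-fold higher (adjusted p = 0.00097, limma), and it was called whichever array was left out, with the assumption on lone arrays given for Mmp13. Adamts10 fell by 0.47 at 1 of its probe sets (adjusted p = 0.0395), a call lost without zymosan 1, zymosan 2 or unstimulated 1 (adjusted p = 0.212, 0.225 and 0.0761), and its other probe set was not called (-0.47, adjusted p = 0.261). Adam17, the sheddase that releases tumour necrosis factor, differed by -0.08 (adjusted p = 0.673).

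Of 15 matrix components and receptors tested, 2 rose and 2 fell. Thbs1, or thrombospondin-1, rose 3.94-fold at its probe set of highest mean (7.18 and 7.03 with zymosan, against 5.19 and 5.07 unstimulated, adjusted p = 0.00199) and 1.52-fold at the other. Fn1, or fibronectin, rose 1.73-fold (adjusted p = 0.0167; 0.0896 without zymosan 1 and 0.142 without zymosan 2). The cell surface proteoglycan genes Sdc4 and Sdc3 were 3.71-fold and 1.48-fold lower (adjusted p = 0.0202 and 0.0308). For Sdc4 the unstimulated arrays again lay apart, at 9.15 and 10.20, and its other probe set did not pass (adjusted p = 0.0682). The Sdc4 call was lost without zymosan 1 or zymosan 2. The Sdc3 call at the probe set of highest mean was lost without zymosan 1, zymosan 2 or unstimulated 2.

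Of 12 tested transcription factor genes known to act on metalloproteinase and urokinase promoters, 2 rose and 1 fell. Junb, an AP-1 subunit, read 8.99 and 9.01 on the zymosan arrays, against 7.39 and 7.46 on the unstimulated arrays (2.98-fold higher, adjusted p = 0.00213). Egr1, an early growth response factor, rose 9.63-fold (adjusted p = 0.00206). Both were called whichever array was left out, under the same assumption. Ets1 fell by 0.53 at its probe set of highest mean (adjusted p = 0.0291), a call lost without zymosan 1, zymosan 2 or unstimulated 2 (adjusted p = 0.192, 0.165 and 0.0587), while the other Ets1 probe sets were not called. Fos (-0.40) and Jun (0.10), also AP-1 subunits, did not pass the test (adjusted p = 0.114 and 0.7).

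By the distance between centred values over the 4 arrays, the genes most like Mmp13 among 13221 were Serpinb1a (distance 0.48) and Ptger3 (0.67). Serpinb1a, an inhibitor of neutrophil serine proteases, read 8.75 and 8.91 on the zymosan arrays, against 6.19 and 5.19 on the unstimulated arrays, with unstimulated 1 the higher as for Mmp13. Ptger3, a prostaglandin E2 receptor, read 5.59 and 6.06 on the zymosan arrays, against 3.67 and 2.92 on the unstimulated arrays, which were below the detection level. With 4 arrays this likeness is a description.

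Markers of other cells that make these proteases were read beside them. Stromal fibroblast markers averaged 4.38 and 4.47 on the zymosan arrays and 4.57 and 4.52 on the unstimulated arrays, with Col1a1, Col3a1, Lum and Thy1 below the detection level on every array, 4 of 10 in all. Of 7 osteoclast markers, 5 were tested and Ctsk, the collagen-cutting cathepsin K, rose by 1.79 (adjusted p = 0.0025), and Dcstamp, a fusion protein of osteoclast precursors, read 5.02 and 4.89 on the zymosan arrays, against 7.14 and 5.72 on the unstimulated arrays (-1.47, adjusted p = 0.0765), while Calcr and Ocstamp were below the detection level on all arrays. The osteoclast list averaged 5.53 and 5.43 on the zymosan arrays and 5.50 and 5.17 on the unstimulated arrays. Among the tested markers of T and NK, B, dendritic and endothelial cells, Cd79b of B cells (-0.58) and Itgax of dendritic cells (-0.92) were called lower. Postn of the fibroblast list was at least 1.24-fold lower (adjusted p = 0.0284), with both zymosan arrays below the detection level. The part of any such cells in the readings above was not tested.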

How the data were processed

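RNA was measured on 4 Affymetrix Mouse430_2 arrays, 2 per group, from 4 ug of total RNA per the labels. The authors' deposited log2 values come from RMA, per the submitters' processing notes. RMA's version, and which arrays it normalized as 1 set, were not found in the labels or headers. Array medians were 4.92 to 4.94 after 64 control probe sets were set aside, and no normalization was added. Settings files gave the scan date, used as the processing day, and the operator and project.

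Of 45037 probe sets, 34945 had 1 gene symbol, 932 several (used to name no gene) and 9160 none. The 27571 at or above the array's 40th percentile on at least 2 arrays (13222 genes) were fitted with lmFit and eBayes in limma 3.58.1 (R 4.3.3), 2-sided, with Benjamini-Hochberg adjustment across them and a threshold of 0.05. SEs and intervals are moderated. A group entirely under the detection level was set to that level, and the fold is then a lower bound. That bound is on the fold between group means and takes no account of array spread. The test and its p-value used the values as deposited. The fit was tested on simulated data. With so few arrays, precision is limited.

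Members and lists were chosen with earlier results of these data known. Named were all member probe sets, up to 6 called genes of largest difference per related list at the probe set of highest mean, 9 fixed genes, and the 2 genes most like a member called with a difference of at least 1. Second probe sets of other genes, Adam17, Fos, Jun, Mmp7 and the markers were named after their values were seen. Promoters are RefSeq's (GRCm38.p6).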

Additional observations from a re-analysis of the deposited data

How the results depend on the processing

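The 13 alternatives were 2 other filters, 2 normalizations, 2 variance models, 1 probe set per gene, limma's treat at a minimum fold of 1.5, the processing day as a random block, and each of the 4 arrays left out. The day's block was set after seeing the data at a correlation of 0.45 taken from the array pairs, because limma's duplicateCorrelation gave no estimate from 4 arrays. All 3 member calls held under the filters, the normalizations, the variance models and 1 probe set per gene where the probe set entered. With treat, limma called 0 member probe sets higher and 0 lower (1 and 2 at an unadjusted p under 0.05), and with the day as a block 0 lower (6 unadjusted). With an array left out the members called higher ranged from 0 to 2 and lower from 0 to 4; the counts of 0 came without zymosan 1 (1 and 4 unadjusted) or zymosan 2 (1 and 2 unadjusted), and the highest without unstimulated 1. Over all probe sets the calls higher and lower were 2339 and 2054, against 1053 and 937 with the day as a block, 253 and 197 with treat, and 1335 and 890 of 13222 tested, in place of 27571, with 1 probe set per gene; with an array left out they ranged from 152 to 2562 and from 116 to 2176. Among the other named genes, Mmp10, Bsg, Plgrkt, Adamts10, Sdc3 and Ets1 lost their call with treat and with the day as a block, Fn1 and Sdc4 with treat, and Mmp10 and Adamts10 with no filter (adjusted p = 0.0571 and 0.0516). Uncalled differences that changed sign when an array was left out were those of Mmp14 1440920_at (-0.0097 to 0.026), Mmp14 1448383_at (-0.052 to 0.44), Timp2 1460287_at (-0.030 to 0.23), Timp2 1433662_s_at (-0.21 to 0.076) and Anxa2 (-0.12 to 0.066). The cause of these changes was not tested. Fewer arrays leave fewer degrees of freedom. Without an unstimulated array the spread comes from the zymosan pair, both at the probe set and over all those kept. No paired analysis was possible because the labels give the arrays no shared replicate numbers. RMA values near the detection level, as for Mmp14, Mmp19 and Mmp9, limit what can be said of those genes.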
